A study of Mus musculus with 52 samples.

Results

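The genes described here are 7 that liver uses to answer fasting and insulin: Pck1, G6pc, Tat, Igfbp1, Irs2, Foxo1 and Ppp1r3b. They were chosen by name, among 38997 genes listed in any tissue of a survey of mice lacking the long noncoding RNA Tug1, and all 7 were among the 20198 genes listed in liver. The choice was made with earlier results of these data known. The survey sequenced polyadenylated RNA from male mice, and the liver groups were 3 wild-type and 3 Tug1-/- livers on a mixed C57BL/6J and 129S6 background without the Neo cassette, the Tug1-/- mice carrying the Tug1_tm1.1Vlcg allele. Heart, eyes, spleen and mouse embryonic fibroblasts (MEFs) had the same 3 against 3, prostate had 3 wild-type and 2 Tug1-/- samples, and testes had 4 wild-type, 4 Tug1-/- and 3 rescue samples, so that 46 of the 52 samples stood behind the values used. In the Tug1_tm1.1Vlcg allele a lacZ cassette replaces the gene body while the Tug1 promoter and first exon remain, so that Tug1-/- mice both lack the RNA and carry a reporter. The allele is constitutive, so liver and every other organ lacked Tug1 together. The knockout and rescue testes kept the Neo cassette, were on C57BL/6J, and the rescue mice also carried a doxycycline-induced Tug1 transgene (tg(Tug1) with CAGs-rtTA3). The paper describes the sequenced organs as adult and the MEFs as embryonic. The exact age, feeding state and time of day at which livers were collected are not given in the sources used here.

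In the fasted state, glucagon and glucocorticoids drive hepatocytes to make and release glucose, and low insulin leaves the transcription factor FOXO1 in the nucleus, where it activates its target genes. After a meal, insulin acts through its receptor, the adaptor proteins IRS1 and IRS2 and the kinase AKT, which phosphorylates FOXO1 and sends it out of the nucleus. Pck1 encodes cytosolic phosphoenolpyruvate carboxykinase and G6pc the catalytic subunit of glucose-6-phosphatase, the enzymes that open and close gluconeogenesis. Tat encodes tyrosine aminotransferase, a classical glucocorticoid-induced enzyme, Igfbp1 a secreted binding protein of insulin-like growth factors that insulin represses, and Ppp1r3b the regulatory subunit that brings protein phosphatase 1 to glycogen.

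The promoters of the genes are shown because their short regulatory sequences were first described in several of them. RefSeq (build GRCm38.p6) gave a window from 250 bases before to 50 bases after the transcription start for 6 of the 7 genes, all but Ppp1r3b. Capitals mark matches on either strand to CAAAACA or AAAACAA, both forms of the insulin response sequence, to GTAAACA, the forkhead motif, to ACGTCA, the core of the cAMP response element, or to AGAACA, the core of a glucocorticoid receptor site. The Igfbp1 window (chr11:7197537-7197836, plus strand), the G6pc window (chr11:101367466-101367765, plus strand) and the Pck1 window (chr2:173152823-173153122, plus strand) were as follows.
Igfbp1: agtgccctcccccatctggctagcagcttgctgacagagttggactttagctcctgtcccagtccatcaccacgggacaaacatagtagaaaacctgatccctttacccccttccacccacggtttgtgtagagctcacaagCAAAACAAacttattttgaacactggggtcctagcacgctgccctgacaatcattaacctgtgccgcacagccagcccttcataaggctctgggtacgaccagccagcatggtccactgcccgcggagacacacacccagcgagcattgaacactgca
G6pc: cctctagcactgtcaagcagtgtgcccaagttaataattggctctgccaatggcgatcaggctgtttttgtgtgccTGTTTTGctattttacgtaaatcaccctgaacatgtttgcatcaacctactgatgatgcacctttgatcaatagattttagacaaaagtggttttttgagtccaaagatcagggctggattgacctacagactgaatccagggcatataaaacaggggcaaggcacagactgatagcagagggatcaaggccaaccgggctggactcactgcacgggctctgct
Pck1: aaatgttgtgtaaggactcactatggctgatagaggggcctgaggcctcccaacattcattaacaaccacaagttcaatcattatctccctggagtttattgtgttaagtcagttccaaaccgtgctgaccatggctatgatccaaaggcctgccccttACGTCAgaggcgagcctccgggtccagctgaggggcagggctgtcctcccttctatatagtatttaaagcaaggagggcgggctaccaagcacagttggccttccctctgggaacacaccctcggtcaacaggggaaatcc

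The Igfbp1 window held CAAAACA beginning 108 bases before the start and AAAACAA beginning 107 bases before it, a single stretch in which the matches overlap. G6pc held CAAAACA on the opposite strand, 174 bases before the start, and Pck1 held ACGTCA 91 bases before it. Irs2 (chr8:11008880-11009179, minus strand) also held both overlapping insulin forms, on the strand opposite to the gene, 37 and 38 bases before its start. The windows of Tat (chr8:109990186-109990485, plus strand) and Foxo1 (chr3:52268087-52268386, plus strand) held none of these letters. Among all 32851 RefSeq windows of the same length, 12.3% held an insulin form, 6.28% CAAAACA and 9.02% AAAACAA, 7.51% held ACGTCA, 3.65% GTAAACA and 19% AGAACA. A match is a run of letters and not a shown binding site. The starts used by RefSeq lay 1 to 471 bases from the gene starts in the deposited tables.

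Each tissue was given as 1 mean value per genotype, in TPM, a transcript level scaled for transcript length and library size. No value per mouse was used, so no difference below can be set against the spread between mice, and no test was made. Differences are given as the log2 ratio of Tug1-/- over wild-type mean TPM after adding 1 TPM to each, and a difference of at least 1.5-fold (0.58 on that scale) among genes with at least 1 TPM in either genotype is called past the limit. That limit is one of size and not of significance. In liver, 251 of 12121 genes (2.07%) were higher past the limit in Tug1-/- mice and 178 (1.47%) were lower, and the median of all genes was 0.01. Summed mean normalized counts were 4.41e+07 in liver and 3.87e+07 to 4.83e+07 over the 6 tissues that gave them. Tug1 itself averaged 10.1 TPM in wild-type livers and 0.00832 TPM in Tug1-/- livers, or 0.0825% of the wild-type level, and across the 7 tissues its means were 10.1 to 57.5 TPM in the wild type and 0.00832 to 0.885 TPM in Tug1-/-. The livers carried the hepatocyte markers, 9 of 10 of which were listed, with a summed level of 139554 TPM in the wild type and 145222 TPM in Tug1-/- and none past the limit.

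In livers without Tug1, the hormone-responsive genes did not differ in one direction. Igfbp1 and Tat had higher means past the limit, G6pc had a lower one, Pck1 and Foxo1 were higher and Irs2 lower by less than the limit, and Ppp1r3b had nearly the same mean in both genotypes. Thus 2 of 7 were higher past the limit, beside 2.07% of all liver genes, and 1 of 7 lower, beside 1.47%. Because the 7 were chosen with earlier results of these data known, these counts are a description and no independent support. Of the 7 log2 ratios 5 were above 0 and 2 below, with a median of 0.46.

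**Figure D1:**
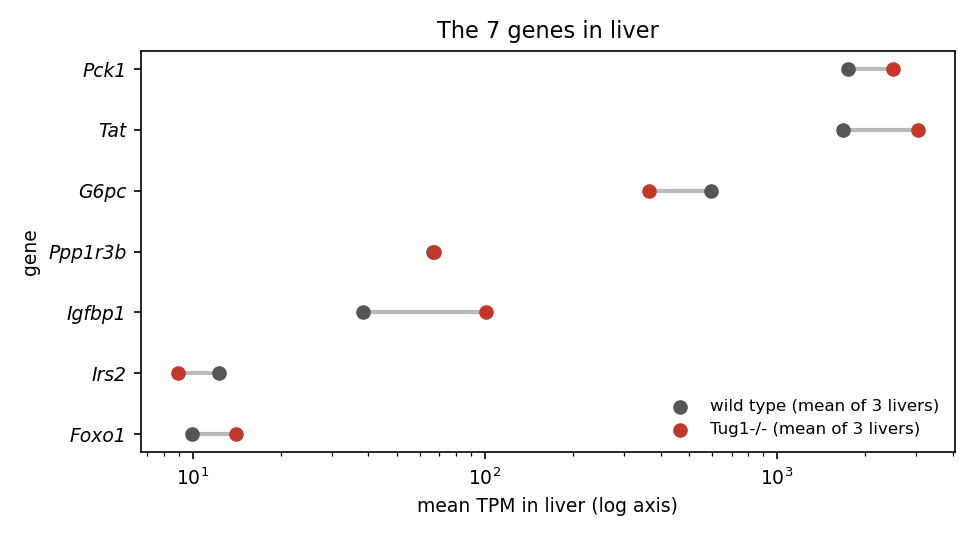
Mean TPM of the 7 genes in liver (log axis), grey for the mean of 3 wild-type and red for the mean of 3 Tug1-/- livers, joined by a line. Igfbp1 and Tat show the longest lines to the right, G6pc lies to the left of its wild-type point, and the points of Ppp1r3b overlap.

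Pck1 and G6pc, the enzymes at the ends of gluconeogenesis, differed in opposite directions. Pck1 (ENSMUSG00000027513.11, chr2:173153048-173159273, plus strand) averaged 1747 TPM in wild-type livers and 2501 TPM in Tug1-/- livers, 1.43-fold higher (log2 ratio 0.52), just inside the limit. It was among the most abundant liver messages, at position 74 of all genes by wild-type TPM. G6pc (ENSMUSG00000078650.2, chr11:101367561-101377903, plus strand) averaged 595 TPM in wild-type livers and 364 TPM in Tug1-/- livers, 61.1% of the wild-type level (log2 ratio -0.71), the 111th lowest ratio of the 12121 genes. The level of Pck1 was therefore 2.94 times that of G6pc in wild-type and 6.87 times in Tug1-/- livers. Among genes of glucose output inside the limit, Slc37a4, which carries glucose-6-phosphate to the phosphatase, averaged 147 and 178 TPM, Slc2a2, the glucose transporter of the hepatocyte membrane, 275 and 231 TPM, and Fbp1, fructose-1,6-bisphosphatase, 1492 and 1570 TPM in wild-type and Tug1-/- livers. Of the 15 genes on the glucose output list, 1 was higher past the limit (Got1, a transaminase that feeds oxaloacetate and aspartate exchange, from 166 to 306 TPM, log2 ratio 0.88) and 1 lower (G6pc), with a list median of 0.07. Past the limit were 2.07% of all liver genes higher and 1.47% lower.

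Tat (ENSMUSG00000001670.13, chr8:109990437-109999803, plus strand) averaged 1681 TPM in wild-type livers and 3038 TPM in Tug1-/- livers, 1.81-fold higher (log2 ratio 0.85), the 97th highest ratio. The difference of 1358 TPM between its means was the largest of the 7 in absolute terms. It went from below Pck1 in wild type to above it in Tug1-/- livers. The later enzymes of tyrosine breakdown were inside the limit, with Hpd at 2152 and 2147 TPM, Hgd at 610 and 630 TPM, Gstz1 at 388 and 349 TPM (log2 ratio -0.15), and Fah at 657 and 669 TPM in the wild type and Tug1-/-. Among 22 genes of amino acid breakdown, 2 were higher past the limit, Tat and Sds, serine dehydratase (201 to 304 TPM, log2 ratio 0.59), none was lower, and the median was 0.12. The shares of all liver genes were 2.07% higher and 1.47% lower.

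Igfbp1 (ENSMUSG00000020429.7, chr11:7197782-7202546, plus strand), whose promoter is printed above, had the largest ratio of the 7. Its mean was 38.2 TPM in wild-type livers and 101 TPM in Tug1-/- livers, 2.66-fold higher (log2 ratio 1.39), the 24th highest of the 12121 genes. Irs2 (ENSMUSG00000038894.7, chr8:10984681-11008458, minus strand), whose promoter holds the same overlapping insulin forms, differed the other way, with 12.3 TPM in wild-type livers and 8.91 TPM in Tug1-/- livers (log2 ratio -0.42), inside the limit. FOXO1 is known to activate both genes. The ratio of Igfbp1 to Irs2 was 3.11 in wild-type and 11.4 in Tug1-/- livers.

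**Figure D2:**
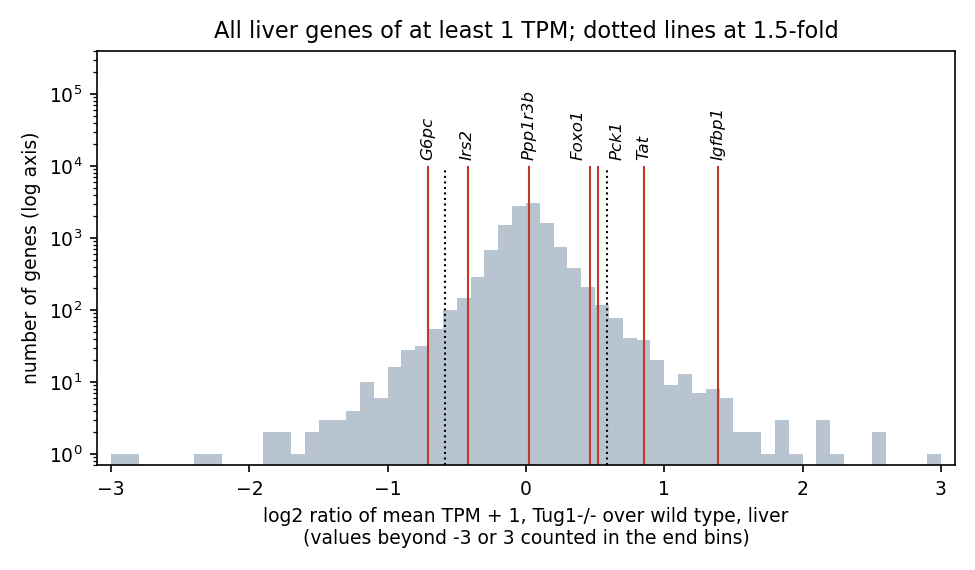
Number of liver genes of at least 1 TPM (log axis) by log2 ratio of mean TPM + 1, Tug1-/- over wild type, in bins of width 0.1, with the 7 genes as red lines and the 1.5-fold limit dotted. Igfbp1 at 1.39 and Tat at 0.85 lie outside the right limit, G6pc at -0.71 outside the left one, and Ppp1r3b at 0.02 lies near the peak.

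Foxo1 (ENSMUSG00000044167.6, chr3:52268336-52353221, plus strand) averaged 9.98 TPM in wild-type livers and 14.1 TPM in Tug1-/- livers, 1.41-fold higher (log2 ratio 0.46) and inside the limit. The activity of the protein is set mostly by where it lies in the cell, which RNA levels do not show. Within a list of 20 liver genes that FOXO1 activates or represses, 2 were higher past the limit, Igfbp1 among them, and 4 were lower (G6pc, Angptl8, Bcl6 and Gadd45a), with a median of -0.11. Beside them, 2.07% of all liver genes were higher past the limit and 1.47% lower. Bcl6, a transcriptional repressor, averaged 20.1 and 8.10 TPM in wild-type and Tug1-/- livers (log2 ratio -1.21), and Gadd45a, a stress-induced growth arrest gene, 7.63 and 3.70 TPM (log2 ratio -0.88). Since the list pools activated with repressed genes, neither its counts nor its median gives a direction for FOXO1.

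Ppp1r3b (ENSMUSG00000046794.9, chr8:35375739-35388139, plus strand) averaged 66.3 TPM in wild-type livers and 67.3 TPM in Tug1-/- livers (log2 ratio 0.02). Another glycogen-targeting subunit of the same phosphatase, Ppp1r3c, averaged 91.8 TPM in wild-type livers and 36.8 TPM in Tug1-/- livers (log2 ratio -1.30). It was the 1 gene of 16 on the glycogen list past the limit, where 1.47% of all liver genes were lower and 2.07% higher. Ppp1r3b stood at 0.722 times the level of Ppp1r3c in wild-type livers and at 1.83 times in Tug1-/- livers. The enzymes they act on, Gys2 (liver glycogen synthase, 334 and 367 TPM) and Pygl (liver glycogen phosphorylase, 194 and 172 TPM), were inside the limit, and the list median was -0.04.

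The mean normalized counts of the 7 genes over both genotypes ran from 1204 (Irs2) to 130572 (Pck1), at which the counting error of a single library is 2.88% to 0.277%. Counting error alone is thus far smaller than the differences given for the 6 genes other than Ppp1r3b, while the variation between mice, which includes feeding and time of day, is not known from the group means.

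Among 23 genes of insulin signalling, 1 was lower past the limit, beside 1.47% of all liver genes, Trib3, a stress-induced inhibitor of AKT (17.2 to 9.47 TPM, log2 ratio -0.80), none was higher, and the median was 0.03. The insulin receptor Insr averaged 33.6 TPM in wild-type livers and 35.0 TPM in Tug1-/- livers, Irs1 5.20 and 5.19 TPM, and Akt2, the main AKT of liver, 29.7 and 29.4 TPM. Of 14 genes of glucose use, 2 were higher past the limit, beside 2.07% of all liver genes, among them Pfkfb3 (6.24 to 19.6 TPM, log2 ratio 1.51), which makes the allosteric activator of phosphofructokinase, and the median was -0.06.

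**Figure D3:**
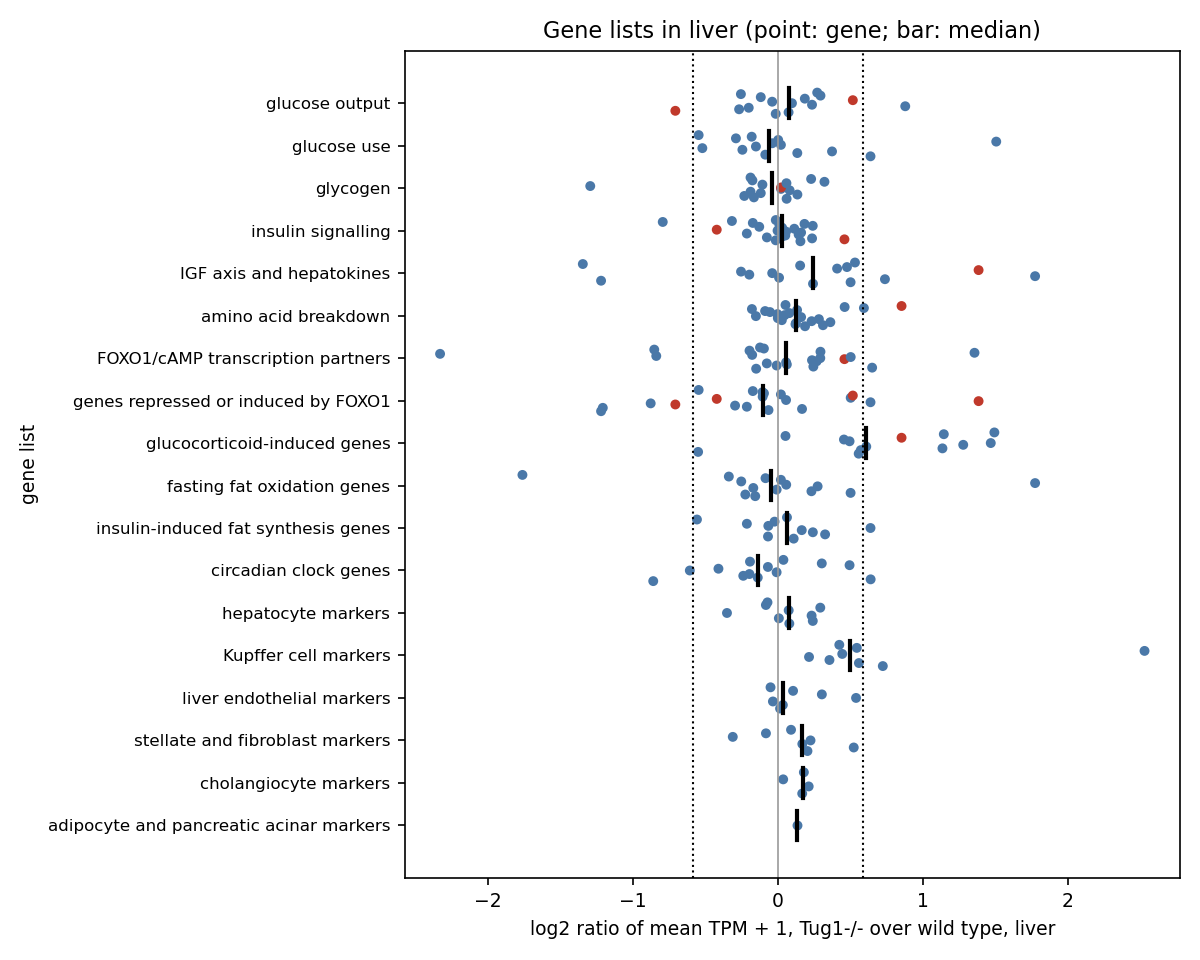
Log2 ratio of mean TPM + 1 in liver, Tug1-/- over wild type, for every gene of at least 1 TPM on 12 process lists and 6 cell-type marker lists (red, the 7 genes described here; black bar, list median; dotted lines, 1.5-fold). The glucocorticoid-induced list sits to the right of 0 with a median of 0.61 and the Kupffer cell list with 0.49, while most other lists centre near 0.

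Of 21 transcription factors and cofactors that act with FOXO1 or under cAMP, 2 were higher past the limit and 3 lower. The shares of all liver genes were 2.07% and 1.47%, and the list median was 0.06. Nr4a1, an immediate-early nuclear receptor that glucagon induces in liver, averaged 18.7 TPM in wild-type livers and 2.90 TPM in Tug1-/- livers (log2 ratio -2.33). Sik1, a kinase that cAMP induces and that restrains the CREB coactivators, averaged 22.0 and 11.7 TPM (log2 ratio -0.85), and Nr0b2, the repressor also known as SHP, 59.9 and 33.0 TPM (log2 ratio -0.84). The genes with higher means were Onecut1, a hepatocyte transcription factor (2.39 and 7.69 TPM, log2 ratio 1.36), and Cebpb (29.6 and 47.0 TPM, log2 ratio 0.65). Ppargc1a, a coactivator of gluconeogenic genes, was inside the limit at 4.35 and 5.56 TPM.

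Secreted regulators of the IGF axis and hepatokines gave 3 higher and 2 lower of 15, beside 2.07% and 1.47% of all liver genes. The list median was 0.24. Besides Igfbp1, the higher ones were Fgf21, a hormone of fasting and protein restriction (1.71 to 8.29 TPM, log2 ratio 1.78), and Enho, which encodes adropin (23.5 to 39.9 TPM, log2 ratio 0.74). The lower ones were Inhbe, an activin subunit (30.6 to 11.4 TPM, log2 ratio -1.35), and Angptl8, which insulin and feeding induce (129 to 54.8 TPM, log2 ratio -1.22). Other binding proteins of insulin-like growth factors were inside the limit, with Igfbp2 at 468 and 622 TPM and Igfbp4 at 625 and 695 TPM, and so was Igf1 at 154 and 149 TPM.

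Fasting fat oxidation genes gave 1 higher (Fgf21) and 1 lower (Vnn1, a pantetheinase controlled by PPAR alpha, 35.9 to 9.87 TPM, log2 ratio -1.76) of 14, with a median of -0.05. Fat synthesis genes that insulin induces gave 1 higher of 11 and none lower, with a median of 0.06. Beside both lists, 2.07% of all liver genes were higher past the limit and 1.47% lower. Fasn, fatty acid synthase, averaged 161 and 180 TPM in wild-type and Tug1-/- livers. Srebf1, on the same list, averaged 209 and 142 TPM (log2 ratio -0.56). Of the 11 ratios on that list 6 were above 0. The medians of both lists, fasting and fed, were within 0.1 of 0, which does not show that single genes were alike. The part of feeding state in these values was not tested.

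A list of 13 genes that glucocorticoids induce, Tat included, was compared in the same way. Of these, 7 were higher past the limit, beside 2.07% of all liver genes, 6 did not pass it, none was lower past it, and the median was 0.61, with 12 ratios above 0. In the same livers all 8 Kupffer cell markers had a ratio above 0, with a median of 0.49 and a summed level of 324 TPM for wild type and 448 TPM for Tug1-/-, and their part in the values of this list was not tested. Without Tat the list gave 6 of 12 higher and a median of 0.59. The list was chosen with earlier results of these data known, so its counts are a description and no independent support. Zbtb16 averaged 2.20 TPM in wild-type livers and 8.02 TPM in Tug1-/- livers (log2 ratio 1.49), Tsc22d3, which encodes the glucocorticoid-induced leucine zipper, 48.8 and 109 TPM (log2 ratio 1.15), and Fkbp5, a cochaperone of the glucocorticoid receptor, 6.78 and 16.1 TPM (log2 ratio 1.14). The metallothioneins Mt1 (26.8 and 66.6 TPM, log2 ratio 1.28) and Mt2 (4.04 and 13.0 TPM, log2 ratio 1.47), which metals also induce, were higher as well, and so was Lcn2, an acute-phase protein (1.32 and 2.54 TPM, log2 ratio 0.61). The exception to the direction was Dusp1, at 40.1 and 27.1 TPM (log2 ratio -0.55). The glucocorticoid receptor gene Nr3c1 averaged 39.9 and 35.1 TPM. Hormone levels are no part of these data, and the part of glucocorticoids in the value of Tat was not tested.

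Several of the 7 genes follow the time of day, so clock genes are given beside them. Of 13 tested, 1 was higher past the limit, Ciart (8.09 to 13.2 TPM, log2 ratio 0.64), and 2 were lower, Bhlhe41 (3.22 to 1.32 TPM, log2 ratio -0.86) and Nfil3 (18.3 to 11.6 TPM, log2 ratio -0.61), with a median of -0.14. The shares of all liver genes were 2.07% higher and 1.47% lower. Dbp, one of the strongest daily rhythms in liver, averaged 61.6 TPM in the wild type and 61.2 TPM in Tug1-/-, and Nr1d1 77.1 and 57.7 TPM. Per1 averaged 12.2 and 17.6 TPM (log2 ratio 0.49) and Per2 8.88 and 11.2 TPM (log2 ratio 0.30). Of the 13 ratios 4 were above 0. The part of collection time in the differences of the 7 genes was not tested.

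Markers of cell types other than the hepatocyte were also compared. Of the 8 Kupffer cell markers given above, 2 were higher past the limit, beside 2.07% of all liver genes. They were Marco (3.56 to 25.3 TPM, log2 ratio 2.53) and Adgre1 (12.3 to 21.0 TPM, log2 ratio 0.72). None of the 7 endothelial, 7 stellate and fibroblast or 4 cholangiocyte markers tested was past the limit, with medians of 0.03, 0.17 and 0.17, and of the adipocyte and acinar markers 1 reached 1 TPM, Cidec at 3.48 and 3.92 TPM. The part of the Kupffer cell markers in the members' values was not tested. In bulk tissue, a change in the number of cells of a type cannot be told apart from a change in RNA per cell.

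Among the 7 tissues used, 5 of the 7 genes had their highest wild-type level in liver. G6pc in liver stood 2867 times above its next tissue, spleen (0.208 TPM), Tat 1816 times above heart (0.925 TPM), Pck1 61.5 times above heart (28.4 TPM), Igfbp1 58.2 times above eyes (0.656 TPM) and Ppp1r3b 7.84 times above MEFs (8.46 TPM). Irs2 and Foxo1 were spread more evenly. Irs2 was highest in eyes at 35.7 TPM, 2.91 times the liver level, followed by spleen at 18.3, MEFs at 16.2, liver at 12.3, heart at 7.12, testes at 4.30 and prostate at 3.24 TPM. Foxo1 was highest in spleen at 52.7 TPM, 5.28 times the liver level, then eyes at 14.5, liver at 9.98, MEFs at 7.76, prostate at 7.56, heart at 7.52 and testes at 3.45 TPM. Which neighbours in these orders differ beyond the spread between mice cannot be read from group means.

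**Figure D4:**
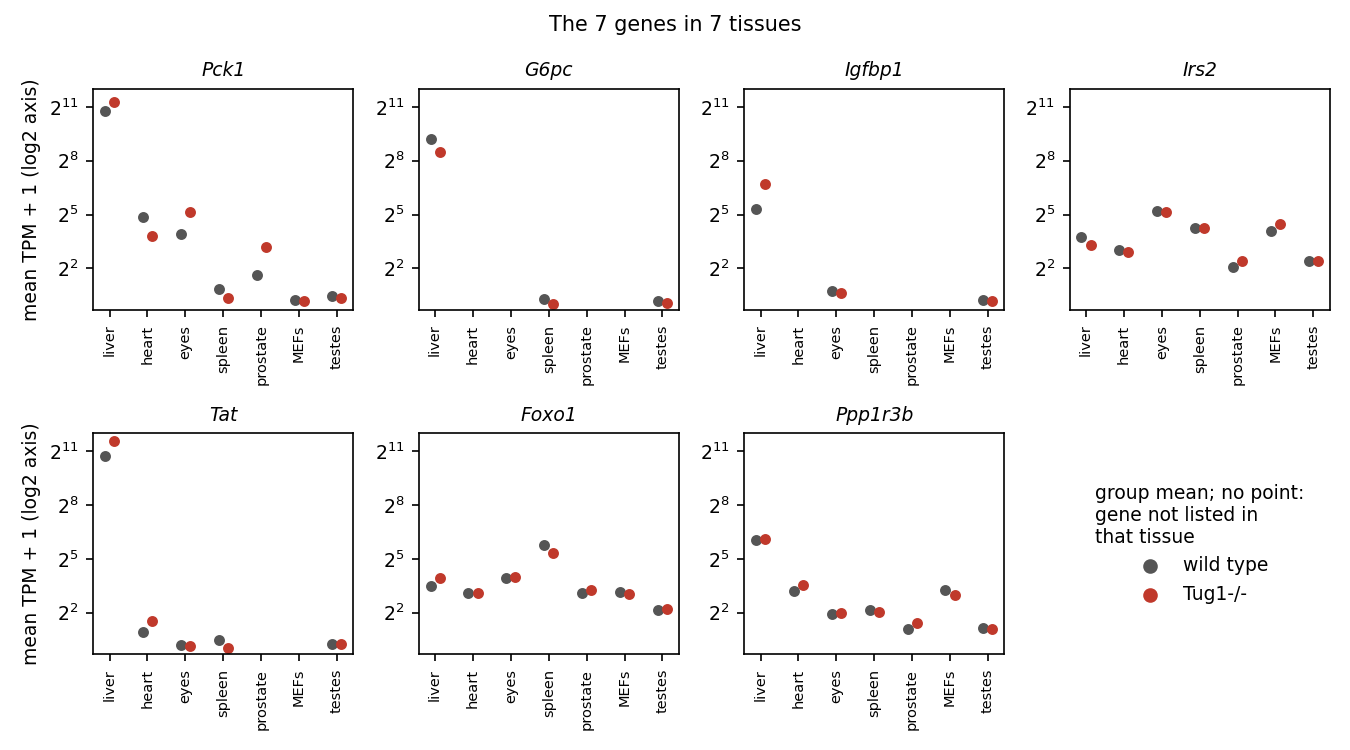
Mean TPM + 1 (log2 axis) of each of the 7 genes in 7 tissues, grey for wild type and red for Tug1-/-, with no point where the gene was not listed. Pck1, G6pc, Igfbp1 and Tat stand far above their other tissues in liver, and Irs2 and Foxo1 are highest in eyes and in spleen.

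Outside liver, the 7 genes had 32 entries in the other 6 tissues, of which 22 reached 1 TPM. Past the limit were 2 higher entries and 1 lower, and all 3 belonged to Pck1. Of all genes tested, 1.09% were higher past the limit in heart, 2.14% in eyes, 4.15% in spleen, 3.31% in prostate, 2.03% in MEFs and 1.37% in testes, and 1.31%, 2.23%, 2.33%, 1.44%, 1.86% and 2.29% were lower, respectively. In eyes Pck1 averaged 14.1 TPM in the wild type and 34.8 TPM in Tug1-/- (2.48-fold higher), in prostate 2.11 and 8.13 TPM (3.86-fold higher, log2 ratio 1.56), and in heart 28.4 and 12.8 TPM (2.21-fold lower, log2 ratio -1.09). Pck1 is also an enzyme of glyceroneogenesis in fat cells, and adipocyte markers differed in the same direction in each of the 3 tissues. Adipoq, the adipocyte hormone adiponectin, averaged 30.7 and 91.4 TPM in eyes, 9.65 and 42.7 TPM in prostate, and 32.2 and 14.5 TPM in heart. Plin1, the coat protein of fat droplets, averaged 10.5 and 30.3 TPM in eyes, 2.66 and 9.89 TPM in prostate, and 10.3 and 4.66 TPM in heart, and Cidec, another droplet protein, 21.9 and 97.4, 11.5 and 55.5, and 23.8 and 13.7 TPM. In testes Adipoq averaged 23.7 and 23.3 TPM, Plin1 0.884 and 1.40 TPM, and Cidec 1.07 and 1.70 TPM. Pck1 was under the 1 TPM minimum there, at 0.356 and 0.277 TPM. The part of fat cells in the Pck1 values was not tested. In liver, Adipoq and Plin1 were not listed.

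**Figure D5:**
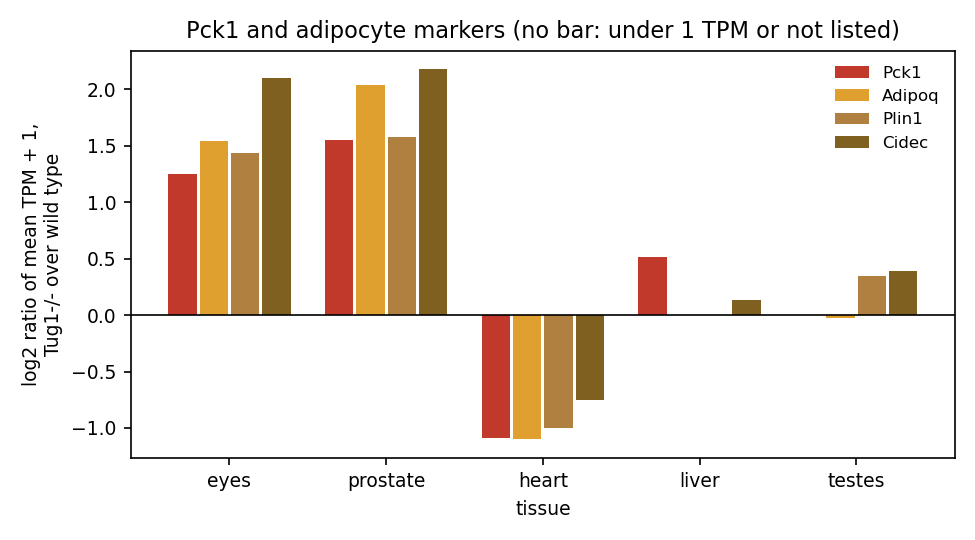
Log2 ratio of mean TPM + 1, Tug1-/- over wild type, for Pck1 and the adipocyte markers Adipoq, Plin1 and Cidec, by tissue, with no bar where a gene was under 1 TPM in both genotypes or not listed. In eyes and prostate all 4 bars are above 0 and in heart all 4 are below, while in liver Pck1 is at 0.52 and Cidec at 0.13. In testes Pck1 has no bar, Adipoq is at -0.02, Plin1 at 0.35 and Cidec at 0.39. Spleen and MEFs are not drawn.

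Of the genes highest in liver, G6pc, Igfbp1 and Tat were at low levels in the other tissues used. Igfbp1 in eyes averaged 0.656 and 0.550 TPM, and in heart Tat averaged 0.925 TPM in the wild type and 1.86 TPM in Tug1-/- (log2 ratio 0.57), just inside the limit. In spleen, G6pc averaged 0.208 and 0.0120 TPM and Tat 0.402 and 0.0120 TPM, all under the 1 TPM minimum. Hepatocyte markers were lower there too, with a summed level of 25.6 TPM in wild-type spleens and 1.86 TPM in Tug1-/- spleens and Alb, albumin, at 16.4 and 0.0843 TPM, and their part in the spleen values was not tested. Also in spleen, Foxo1 averaged 52.7 and 39.4 TPM (log2 ratio -0.41), beside the pancreatic acinar gene Prss2 at 3.21 TPM in the wild type and 1406 TPM in Tug1-/-, whose part was likewise not tested. Irs2 averaged 16.2 and 21.1 TPM in MEFs (log2 ratio 0.37) and 4.30 TPM in both genotypes in testes.

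Genes whose mean level followed each gene most closely were ranked by Pearson's r of log2(TPM + 1) over the 15 group means of all tissues, with genes not listed in a tissue set to 0, among genes of at least 10 TPM in liver. These r are a description, and the means share tissues and libraries. For Pck1 they were Cyp2e1 (r = 0.977), Gpt (0.974) and Nudt12 (0.973). Irs2 and Foxo1, whose levels were highest outside liver, were followed most closely by Atrnl1 (0.968), March6 (0.938) and Zfp871 (0.937), and by Tmco4 (0.985), Ctss (0.976) and Plcl2 (0.972), respectively. Ppp1r3b was followed by Adk (0.985), Amacr (0.943) and Cat (0.937), Tat by Clec4f (0.998) and Agmat (0.997), and Igfbp1 by Gm15611 (0.998), Cyp2c39 (0.995) and Gm19950 (0.994). The genes nearest to G6pc were Cyp3a25, Ugt3a1 and Adh6-ps1.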

How the data were processed

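PolyA-selected RNA was sequenced in paired-end reads. Per the labels and the methods, the authors aligned reads with STAR to GRCm38, counted uniquely mapped reads over GENCODE genes with featureCounts, dropped genes that no replicate covered with 3 reads, and used DESeq2; base calls came from CASAVA 1.8.2. Whether counting used strand is not given in the sources used here, so overlapping genes on opposite strands may share reads. The authors deposited the mean TPM of each genotype per tissue and the mean normalized count over both genotypes, a signal per gene. The deposited fold changes, standard errors, test statistics and p-values are the authors' own comparisons and were not used. Values labelled brain and the 6 F1 hybrid testes were not used here. Ratios were computed in Python 3.11.15 with pandas 2.3.3, with 1 TPM added, a minimum of 1 TPM in either genotype and a limit of 1.5-fold. The script was tested on simulated data with 3-fold changes, which says nothing of calls near the limit. The rules for naming genes took the 7 genes in every tissue, for each list up to 4 genes past the limit, and for each of the 7 the 3 nearest in pattern; other list and marker genes were chosen after their values were seen. Some genes that these rules name are not reported here. The members and the gene lists were chosen with earlier results of these data known. Alternatives changed the added TPM, the minimum, the limit and the scaling.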

Additional observations from a re-analysis of the deposited data

How the results depend on the processing

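The 7 liver log2 ratios kept their sign under the 5 alternatives that could move them, other added TPM and other scalings. They ranged from 0.50 to 0.52 for Pck1, -0.72 to -0.70 for G6pc, 1.30 to 1.41 for Igfbp1, -0.46 to -0.31 for Irs2, 0.84 to 0.85 for Tat, 0.35 to 0.49 for Foxo1 and 0.01 to 0.02 for Ppp1r3b. Counts depended on the limit. At 2-fold, 1 of the 7 was higher in liver and 0 lower, the 12 process lists gave 9 higher and 6 lower (17 and 13 at 1.5-fold), and all liver genes 59 and 37. At a limit of 25% above the lower mean, 4 of the 7 were higher and 2 lower in liver, 6 and 2 entries in the other tissues, 11 and 1 glucocorticoid-induced genes, 32 and 20 genes of the 12 lists, and 828 and 611 of all liver genes. All liver genes gave 409 higher and 321 lower with 0.1 TPM added, 107 and 62 with 5 TPM added, and 117 and 73 at a minimum of 10 TPM, at which 1 entry was higher outside liver. Rescaling without the 50 most abundant genes gave 362 higher and 300 lower liver genes (251 and 178 as reported), and 3 higher and 2 lower entries outside liver. In all, 65 of 90 recomputed counts stayed within 1.5 times the value reported. The alternatives show dependence on calculation only. No paired analysis was possible because the tables used hold group means, so the replicate numbers shared between genotypes could not be applied, and no replicate could be left out.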

Other observations

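The glucocorticoid-induced list, which includes Tat, was also described in the other tissues. Because it was chosen with earlier results of these data known, its counts there are no independent support. In heart, 8 of the 12 genes tested were higher past the 1.5-fold limit and none lower, with a median log2 ratio of 0.70, where 1.09% of all heart genes were higher. Fkbp5 averaged 4.83 TPM in wild-type hearts and 14.1 TPM in Tug1-/- hearts (log2 ratio 1.37), and Zbtb16 8.87 and 27.5 TPM (log2 ratio 1.53). The summed level of the adipocyte and acinar markers in heart was 66.4 TPM for wild type and 32.9 TPM for Tug1-/-, and 5 of 5 Kupffer cell markers tested there had a ratio above 0, with a median of 0.30 and a summed level of 153 and 208 TPM. The part of these markers was not tested. In spleen 6 of 12 were higher, with a median of 0.42, where 4.15% of all genes were higher, and Fkbp5 averaged 28.9 and 55.3 TPM (log2 ratio 0.91). In the same spleens the summed level of the adipocyte and pancreatic acinar markers was 10.4 TPM for wild type and 4381 TPM for Tug1-/-, and that of the hepatocyte markers 25.6 and 1.86 TPM, and their part in the spleen values was not tested. The counts were 3 of 12 in prostate, 2 of 11 in eyes, 1 of 11 in testes and 0 of 9 in cultured MEFs, where 3.31%, 2.14%, 1.37% and 2.03% of all genes were higher. Adipocyte and acinar markers summed to 23.8 and 108 TPM in wild-type and Tug1-/- prostates and to 64.0 and 220 TPM in eyes, Kupffer cell markers to 70.8 and 110 TPM in prostate and to 155 and 192 TPM in eyes, and their part was not tested. No test of a difference between tissues was made.

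In testes, Tug1 averaged 40.1 TPM in wild type, 0.885 TPM in Tug1-/- and 1.60 TPM in rescue mice, and 3 of the 7 genes reached 1 TPM. Foxo1 averaged 3.45 TPM in wild type, 3.62 TPM in Tug1-/- and 3.89 TPM in rescue, Irs2 4.30, 4.30 and 4.24 TPM, and Ppp1r3b, lowest in rescue, 1.23, 1.09 and 0.737 TPM.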
